A study of Mus musculus with 4 samples.

Results

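The 10 genes described here are the paralogues that encode the core of the nucleosome remodelling and deacetylase (NuRD) complex in the mouse, in 4 groups. These were the CHD genes *Chd3*, *Chd4* and *Chd5*, the HDAC genes *Hdac1* and *Hdac2*, the MTA genes *Mta1*, *Mta2* and *Mta3*, and the MBD genes *Mbd2* and *Mbd3*. They were chosen by name from the 48526 genes in the count files, and all 10 were among the 12883 genes that passed the filter on low counts and were tested. RNA-seq counts came from wild-type (WT) R1 cells, an established line of mouse embryonic stem cells (ESCs), and from *Zfp296* KO clone 2 (KO2), a single clonal line made from R1 ESCs by cutting exon 1 of *Zfp296* with CRISPR/Cas9. Each group had 2 replicates, which the study's methods describe as RNA isolated in duplicate. All cells were grown without feeders on gelatine, in serum with LIF and the inhibitors PD0325901 and CHIR99021, so both groups share these treatments. *Zfp296* encodes a zinc finger protein that interacts with NuRD and with the SIN3A complex in the study's affinity purifications. The comparison of KO2 with WT asks here whether the RNA of these paralogues differs in proportion or amount when the line carries the edit. RNA does not give the amounts of protein or the make-up of the complex. By mass spectrometry, the study found no significant change of NuRD subunits at the protein level in *Zfp296* KO ESCs. The main figure for this shows a KO clone other than KO2.

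NuRD joins 2 enzymatic activities. A CHD protein is the ATPase that moves nucleosomes, and HDAC1 or HDAC2 removes acetyl groups from histones. An MTA protein is the scaffold that holds the deacetylases, and MBD2 or MBD3 links the deacetylase module to the remodeller, with either of these MBD proteins in a complex but not both. MBD2 binds methylated DNA, while MBD3 does so poorly and is the form best studied in ESCs. CHD4 is the remodeller of ESC NuRD, and CHD5 is best known from neurons and testis. HDAC1 and HDAC2 also serve in the SIN3, CoREST and MiDAC complexes.

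The counts of *Hdac1* have to be read with its sequence in view, which is why the following stretches are shown. *Hdac1* has a near-identical copy, *Gm10093*, a gene in a single exon, and reads that match several places equally well are left out of a count of unique reads. Positions are those of NCBIM37 (mm9), and all stretches are 60 bases of coding sequence or its copy, read from the reference genome 5′ to 3′ in the direction of transcription. In the first set, capitals mark bases at which the *Hdac2* stretch differs from that of *Hdac1*. The stretches are *Hdac1* at chr4:129196330-129196389 on the minus strand, *Gm10093* at chr17:78891666-78891725 on the plus strand and the *Hdac2* stretch aligned to them at chr10:36713597-36713656 on the plus strand.
Hdac1: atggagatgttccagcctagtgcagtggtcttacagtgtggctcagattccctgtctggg
Gm10093: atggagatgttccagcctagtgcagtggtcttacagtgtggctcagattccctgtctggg
Hdac2: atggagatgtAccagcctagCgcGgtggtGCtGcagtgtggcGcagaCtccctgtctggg
*Hdac1* and its copy did not differ in any of these 60 bases, while *Hdac2* differed from *Hdac1* in 8 of them. In the second set, capitals mark the single base at which *Hdac1*, at chr4:129200264-129200323 on the minus strand, differs from *Gm10093*, at chr17:78891299-78891358 on the plus strand.
Hdac1: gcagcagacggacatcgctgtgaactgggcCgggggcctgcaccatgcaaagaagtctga
Gm10093: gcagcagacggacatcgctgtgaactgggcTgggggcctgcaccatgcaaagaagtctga
A read that covers such a base can be given to *Hdac1* or to the copy, whereas a read from the first stretch cannot.

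Over the whole coding sequence, 1437 of the 1446 bases of *Hdac1* were identical in *Gm10093* (99.4%), with 9 differences and a longest identical run of 450 bases. *Hdac1* and *Hdac2* were much further apart. Aligned without gaps, 72.9% of these bases were identical, and the longest identical run was 17 bases. Of the 1996 windows of 43 bases along the annotated protein-coding transcripts of *Hdac1*, 1583 (79.3%) occurred exactly elsewhere in the genome, 1530 of them in *Gm10093*, and 413 were unique. All annotated exons of *Hdac1* together cover 3.445 kb, so exons outside the protein-coding transcripts were not checked. For each of the other 9 paralogues fewer than 1% of windows occurred elsewhere, and for *Hdac2* there were none. No window was shared between any of the 10 paralogues, so no stretch of this length is common to their protein-coding transcripts. The same check of the other NuRD subunits found copies of 62.0% of windows for *Cdk2ap1*, most of them in *Gm12184*, and of 19.4% for *Rbbp7*, whereas *Gatad2a* and *Gatad2b* had none.

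**Figure D1:**
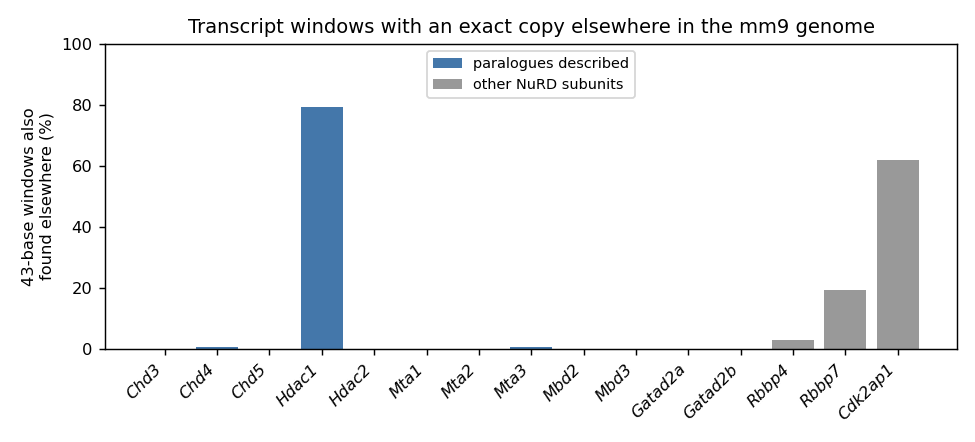
Bars give the percentage of 43-base windows of each gene's annotated protein-coding transcripts that also occur exactly elsewhere in the mm9 genome (vertical axis, percent), for the 10 paralogues (blue) and for 5 other NuRD subunits (grey). Hdac1 stands at 79.3% and the other 9 paralogues lie below 1%, while Cdk2ap1 reaches 62.0%.

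The WT libraries held 2829914 and 4334499 counts on genes and the KO2 libraries 7470907 and 7437294, so both KO2 libraries were the deeper ones and depth cannot be told apart from genotype. Some checks of the labels bear on the direction of every comparison. *Zfp296* itself had 31 and 31 counts in the libraries labelled WT and 416 and 282 in those labelled KO2, or 11.6, 7.33, 52.8 and 37.7 CPM (counts scaled to library size after TMM normalization), a log2 fold change of 2.31 (SE 0.29, edgeR quasi-likelihood test with Benjamini-Hochberg adjustment, adjusted p = 4.64e-05). Whole-gene counts do not check a small edit in exon 1, but a lower level in KO2 was not seen, and an exchange of the labels was not tested. WT and KO2 below therefore stand for the libraries labelled so, and every direction would turn if the labels were exchanged. The Y-linked *Ddx3y* had 0 and 1 count in the WT libraries and 1979 and 2197 in the KO2 libraries, so the libraries differ in more than *Zfp296*. Markers of ESCs were present in all libraries, with summed levels of 5672 to 6032 CPM over the 9 markers found in the files, of which edgeR called 1, *Sox2*, at a log2 fold change of -0.79, and DESeq2 called 2. The 7 fibroblast or feeder markers summed to at most 3.54 CPM in any library, with 3 of them at 0 in all libraries, and the markers of primitive endoderm, mesoderm and trophoblast to at most 5.22, 6.95 and 9.49 CPM.

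Of the 10 paralogues, 3 were called at an adjusted p under 0.05. *Chd3* and *Hdac2* fell and *Chd5* rose in KO2, and the other 7 were not called. Among all tested genes 5.64% were called, 3.04% lower and 2.6% higher. In 6 of the 10 genes the levels of the KO2 libraries lay outside those of the WT libraries, against 48.8% of all tested genes. The median log2 fold change was 0.02 over the 10 genes and 0.01 over all tested genes. With counts summed within each group, the HDAC sum, which is mostly *Hdac2* by counts, was lower in KO2. The CHD, MTA and MBD sums were not called. In that fit 5.6% of all genes were called. The labels number the replicates but do not say how they were separated, so the tests measure the spread between these 4 libraries. In whole cultures, fewer cells that express a gene and less RNA per cell cannot be told apart.

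**Figure D2:**
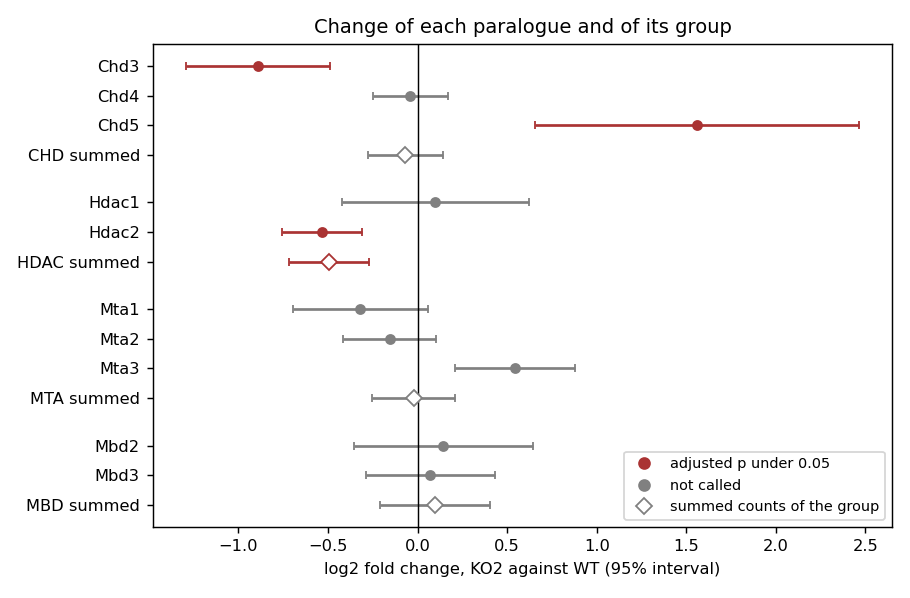
Points give the log2 fold change of KO2 against WT (horizontal axis) with its 95% interval for each of the 10 paralogues, and open diamonds give it for the summed counts of each group. Red marks an adjusted p under 0.05, which holds for Chd3, Chd5, Hdac2 and the HDAC sum, while the interval of Mta3 also lies above 0.

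Levels of different genes were compared per kb of exons. In WT the order ran from *Chd4* (107 ± 4.11 CPM per kb, SD, n = 2) and *Hdac2* (101 ± 5.60) through *Mta2* (41.1 ± 2.84), *Mbd3* (24.3 ± 1.98) and *Mta1* (16.1 ± 2.41) to a cluster of *Mta3* (7.52 ± 0.784), *Mbd2* (7.11 ± 0.599), *Chd3* (6.73 ± 1.19) and *Hdac1* (6.58 ± 0.885), with *Chd5* last (0.434 ± 0.119). The libraries of *Chd4* and *Hdac2* overlapped, and so did those of neighbours within the cluster of 4, so their order is not resolved. In KO2 *Chd4* (104 ± 3.32 CPM per kb) stood clear of *Hdac2* (69.5 ± 3.08), and *Mta3* (10.9 ± 0.447) clear of *Mbd2* (7.81 ± 0.778), which overlapped with *Hdac1* (7.11 ± 1.39). *Chd3* (3.60 ± 0.406) and *Chd5* (1.33 ± 0.085) closed the order, and the places of *Chd3* and *Hdac1* were the only ones exchanged between the groups. Most windows of *Hdac1* cannot give unique reads, so its place on this scale is a lower limit.

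**Figure D3:**
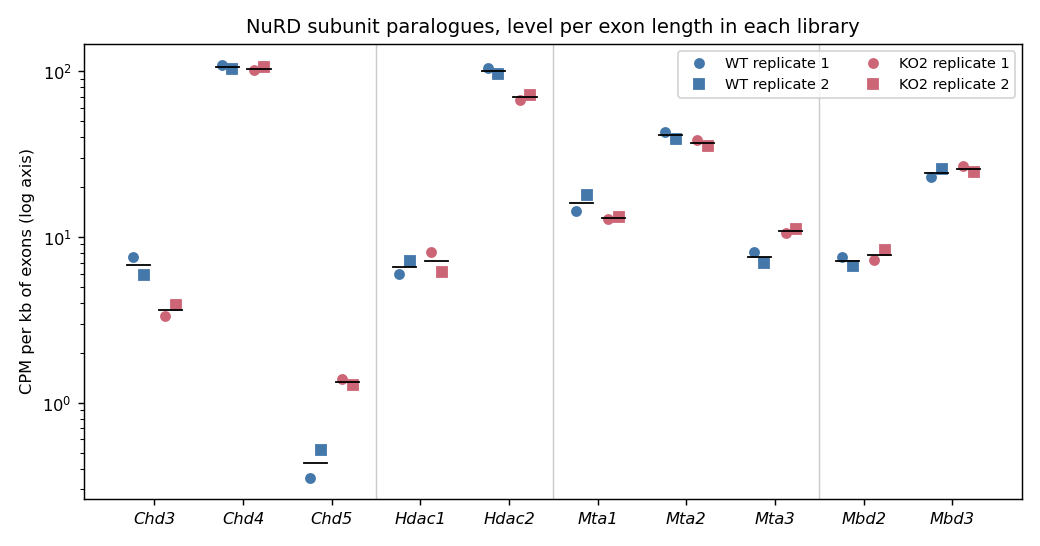
Points give CPM per kb of exons (vertical axis, log scale) of the 10 paralogues in each library, with WT in blue and KO2 in red, circles for replicate 1, squares for replicate 2 and black lines for the mean of each pair. Chd4 lies near 107 in WT and 104 in KO2, the Hdac2 and Chd3 libraries of KO2 lie below those of WT, and those of Chd5 and Mta3 lie above.

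*Chd4* encodes the remodeller that made up most of the CHD RNA. *Chd4* (ENSMUSG00000063870, chr6:125045999-125080609, plus strand) gave 2355 and 3517 counts in WT replicates 1 and 2 and 6400 and 6353 in those of KO2, or 878 and 831 CPM against 812 and 849 CPM. The groups overlapped, and the log2 fold change was -0.04 with a 95% interval from -0.25 to 0.17 (edgeR quasi-likelihood test with Benjamini-Hochberg adjustment, adjusted p = 0.877).

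*Chd3* encodes a close relative of CHD4 that can take its place in NuRD. *Chd3* (ENSMUSG00000018474, chr11:69156775-69182928, minus strand) gave 172 and 211 counts in WT replicates 1 and 2 and 221 and 246 in those of KO2. In the deeper KO2 libraries these were 28.0 and 32.9 CPM, against 64.1 and 49.9 CPM in WT, so both KO2 libraries lay below both WT libraries. *Chd3* fell to 0.539 of its WT level, a log2 fold change of -0.89 (SE 0.19, 95% interval -1.29 to -0.49, edgeR quasi-likelihood test with Benjamini-Hochberg adjustment, adjusted p = 0.00844). Without WT replicate 1 the log2 fold change was -0.71 (SE 0.20) and the call was lost (adjusted p = 0.116), in a fit that called 270 genes in place of 726. *Chd3* was also not called with ERCC spike-in scaling (adjusted p = 0.387) or without a filter on low counts (adjusted p = 0.193). Exons of *Chd3* overlap 479 bp of *Gm17305* on the opposite strand, which had 0 counts in all 4 libraries.

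*Chd5* was the least abundant of the 10 genes, and its WT values rested on few counts. *Chd5* (ENSMUSG00000005045, chr4:151712760-151764303, plus strand) gave 9 and 21 counts in WT replicates 1 and 2 and 105 and 91 in those of KO2, or 3.35, 4.96, 13.3 and 12.2 CPM, while 3 counts corresponded to 1.12, 0.709, 0.380 and 0.401 CPM. Both KO2 libraries lay above both WT libraries. *Chd5* rose 2.94-fold, a log2 fold change of 1.56 (SE 0.43, 95% interval 0.65 to 2.46, edgeR quasi-likelihood test with Benjamini-Hochberg adjustment, adjusted p = 0.0406). This was the least stable of the 3 calls, with an adjusted p of 0.100 in DESeq2 and of 0.152, 0.0754 and 0.119 without WT replicate 1, WT replicate 2 or KO2 replicate 1. Exons of *Chd5* overlap 101 bp of the lincRNA *Gm13645* on the opposite strand.

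Because CHD5 is known from neurons, neural markers were set beside it. Of the 7 neuron and neural progenitor markers found in the files, 3 were tested and 1, *Stmn2*, was called. *Stmn2* was lower in KO2, with 26.8 and 29.1 CPM in WT and 17.5 and 12.2 CPM in KO2 (log2 fold change -0.92, edgeR quasi-likelihood test with Benjamini-Hochberg adjustment, adjusted p = 0.0469), which is the direction opposite to *Chd5*. The other tested markers went the way of *Chd5* without being called. *Tubb3* had 48.8 and 55.5 CPM in WT and 76.7 and 63.5 CPM in KO2 (log2 fold change 0.42, adjusted p = 0.164, edgeR), and *Nes* 97.6 and 86.5 CPM against 113 and 120.3 CPM (log2 fold change 0.35, adjusted p = 0.158, edgeR). DESeq2 called 0 of the list. *Pax6*, a neural progenitor gene with too few counts to be tested, had 0, 1, 13 and 6 counts. The neuronal genes *Rbfox3* and *Snap25* were at 0 in all libraries. Summed over the list, the level was 173 and 171 CPM in WT and 209 and 197 CPM in KO2, and its part in the rise of *Chd5* was not tested.

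Within the CHD group, paralogue use was described by the share of each gene in the summed CPM. *Chd4* held 92.9% and 93.8% of the CHD CPM in WT and 95.15% and 94.96% in KO2. *Chd3* held 6.78% and 5.63% in WT and 3.29% and 3.68% in KO2, and *Chd5* held 0.355% and 0.560% against 1.56% and 1.36%. All these shares lay apart between the groups, with differences of 1.72, -2.72 and 1.00 percentage points for *Chd4*, *Chd3* and *Chd5*. With 2 libraries per group the exact two-sided permutation test cannot go below 0.333, the value it gave for each of them. For *Chd5* the exact 95% Clopper-Pearson intervals, which cover counting error only, ran from 0.162% to 0.673% and from 0.347% to 0.855% in WT and from 1.28% to 1.89% and from 1.10% to 1.67% in KO2, so the groups stood apart beyond counting error. The intervals of *Chd3* also lay apart, down to 4.91% in WT replicate 2 and up to 4.16% in KO2 replicate 2. Those of *Chd4* overlapped, up to 94.6% in WT replicate 2 and down to 94.4% in KO2 replicate 2.

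The proportion of the 2 minor remodellers to each other shifted the most. Per kb of exons there was 21.6 and 11.4 times as much *Chd3* as *Chd5* in the WT libraries, and 2.38 and 3.06 times as much in the KO2 libraries. *Chd4* exceeded *Chd3* 14.5 and 17.6 times in WT and 30.6 and 27.3 times in KO2. The summed CHD counts nevertheless stayed within a narrow range, at 945, 886, 853 and 894 CPM, with a log2 fold change of -0.07 (95% interval -0.28 to 0.14, edgeR quasi-likelihood test with Benjamini-Hochberg adjustment, adjusted p = 0.780).

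*Hdac2* encodes the deacetylase with the more abundant unique reads. *Hdac2* (ENSMUSG00000019777, chr10:36694350-36721695, plus strand) gave 1258 and 1834 counts in WT replicates 1 and 2 and 2381 and 2405 in those of KO2, or 469 and 433 CPM against 302 and 321 CPM. Both KO2 libraries lay below both WT libraries by more than the replicates of either group differed. *Hdac2* fell to 0.691 of its WT level, a log2 fold change of -0.53 (SE 0.11, 95% interval -0.76 to -0.31, edgeR quasi-likelihood test with Benjamini-Hochberg adjustment, adjusted p = 0.00513). Without WT replicate 1 its log2 fold change was -0.48 (SE 0.12, adjusted p = 0.0782), and it was not called with ERCC spike-in scaling (adjusted p = 0.943) or without a filter on low counts (adjusted p = 0.128).

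*Hdac1* encodes the partner deacetylase. Its counts are totals for the gene, so where in the gene the counted reads fell is not known. *Hdac1* (ENSMUSG00000028800, chr4:129193348-129219957, minus strand) gave 55 and 105 counts in WT replicates 1 and 2 and 220 and 158 in those of KO2, or 20.5 and 24.8 CPM against 27.9 and 21.1 CPM. The groups overlapped, and the log2 fold change was 0.10 (SE 0.25, 95% interval -0.42 to 0.62, edgeR quasi-likelihood test with Benjamini-Hochberg adjustment, adjusted p = 0.882). *Gm10093*, the copy (chr17:78890905-78892881, plus strand), had 57, 111, 255 and 190 counts in the same order, close to those of *Hdac1* in every library, and its log2 fold change of 0.27 was not called either (adjusted p = 0.599, edgeR). Entries that HTSeq set aside as not uniquely aligned made up 37.0% and 40.4% of all entries in the WT libraries and 35.6% in each of the KO2 libraries. With the counting options not given, these entries can be alignments rather than reads. How many of them came from *Hdac1* is not given by the counts, so the level of *Hdac1* is a lower limit and its change is uncertain.

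The balance of the 2 deacetylases therefore depended on how *Hdac1* was counted. By CPM, *Hdac1* held 4.19% and 5.42% of the HDAC counts in WT and 8.46% and 6.16% in KO2. Per kb of unique windows, a scale chosen after seeing the data, it held 30.8% and 36.8% in WT and 48.4% and 40.0% in KO2. These windows come from protein-coding transcripts only, while the counts are those of the whole gene. This share of *Hdac1* can therefore be too high. With the counts of *Gm10093* added, likewise chosen after seeing the data, the shares were 8.18%, 10.5%, 16.6% and 12.6%. Dividing by a length scales the ratio of the 2 genes by the same factor in every library, so the order of the libraries is the same by CPM and per kb. By CPM both KO2 libraries lay above both WT libraries, with an exact two-sided permutation p of 0.333, the smallest that 2 against 2 allows. The Clopper-Pearson intervals overlapped, at 4.45% to 6.52% in WT replicate 2 and 5.26% to 7.17% in KO2 replicate 2. The groups therefore did not stand apart beyond counting error in this share. The summed HDAC counts fell from 489 and 458 CPM to 330 and 343 CPM, a log2 fold change of -0.49 (SE 0.11, 95% interval -0.72 to -0.27, edgeR quasi-likelihood test with Benjamini-Hochberg adjustment, adjusted p = 0.00802). This sum is mostly *Hdac2* by counts, and its call was lost without WT replicate 1 (adjusted p = 0.0923).

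**Figure D4:**
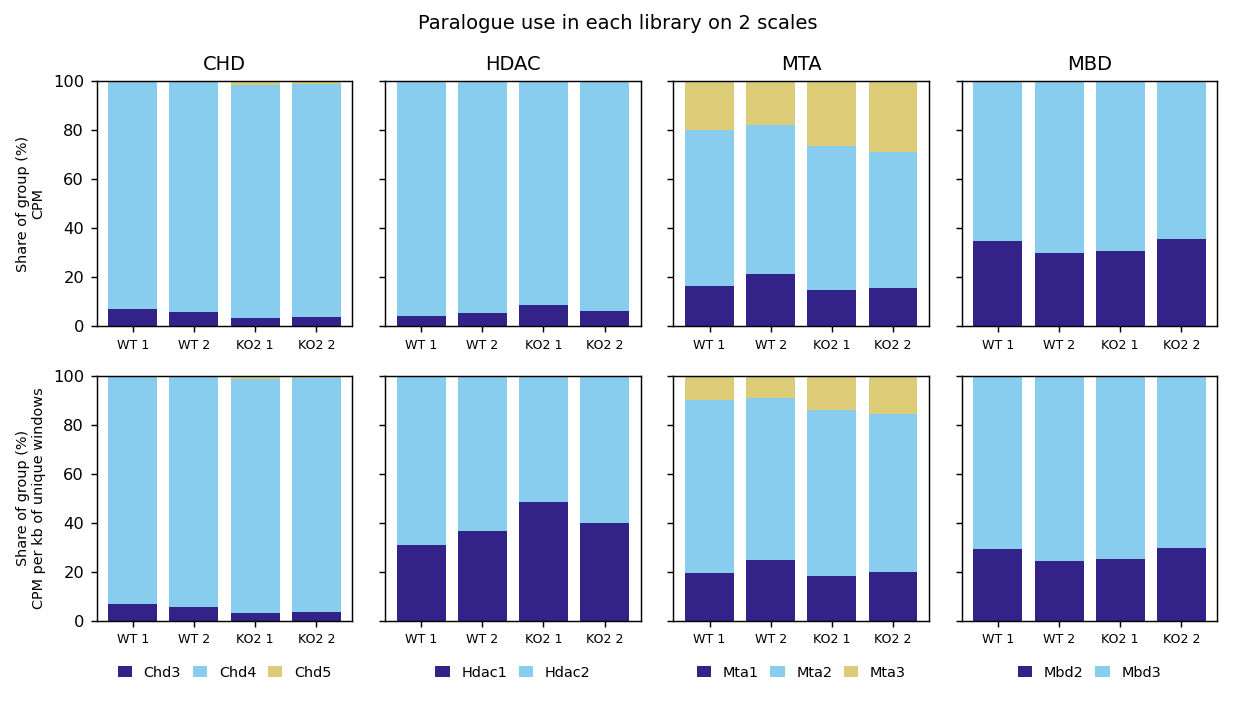
Stacked bars give the share of each paralogue in its group (vertical axis, percent) in each of the 4 libraries, for summed CPM (top) and for CPM per kb of unique windows (bottom). Hdac1 holds 4.19% to 8.46% in the top row and 30.8% to 48.4% in the bottom row, and Mta3 takes a larger share in both KO2 libraries on both scales. The bottom row divides whole-gene counts by windows of protein-coding transcripts only, so its share of Hdac1 can be too high.

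*Mta2* encodes the MTA scaffold with the highest level per kb in these cells. *Mta2* (ENSMUSG00000071646, chr19:9016365-9026793, plus strand) had 474, 678, 1242 and 1079 counts, or 177 and 160 CPM in WT and 157 and 144 CPM in KO2. The groups lay apart by little, and the log2 fold change of -0.16 was not called (SE 0.12, 95% interval -0.42 to 0.10, edgeR quasi-likelihood test with Benjamini-Hochberg adjustment, adjusted p = 0.539). *Mta1* encodes the founding member of the scaffold family. *Mta1* (ENSMUSG00000021144, chr12:114336489-114375417, plus strand) gave 120 and 234 counts in WT replicates 1 and 2 and 314 and 307 in those of KO2, or 44.7, 55.3, 39.8 and 41.0 CPM, with a log2 fold change of -0.32 that was not called (95% interval -0.70 to 0.06, adjusted p = 0.350, edgeR).

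*Mta3* encodes the third scaffold and stood at the edge of the threshold. *Mta3* (ENSMUSG00000055817, chr17:84105503-84223055, plus strand) gave 147 and 200 counts in WT replicates 1 and 2 and 566 and 569 in those of KO2. These were 54.8 and 47.3 CPM in WT and 71.8 and 76.1 CPM in KO2, so both KO2 libraries lay above both WT libraries. The log2 fold change was 0.54 (SE 0.16, 95% interval 0.21 to 0.88, 1.46-fold, edgeR quasi-likelihood test with Benjamini-Hochberg adjustment, adjusted p = 0.0533), just short of the threshold. With at least 10 counts required in every library, the adjusted p was 0.0381, whereas it was 0.164 in DESeq2, 0.250 without a filter on low counts, 0.612 with ERCC spike-in scaling and 0.0844 to 0.210 when each replicate was left out in turn.

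Within the MTA group, *Mta3* held 19.8% and 18.0% of the summed CPM in WT and 26.7% and 29.1% in KO2, a difference of 8.98 percentage points. The Clopper-Pearson intervals of the WT libraries reached up to 22.9% and those of the KO2 libraries down to 24.8%. *Mta2* held 64.0% and 61.0% in WT and 58.5% and 55.2% in KO2, and *Mta1* 16.2% and 21.0% against 14.8% and 15.7%. The intervals of *Mta2* overlapped, at 58.0% to 63.9% in WT replicate 2 and 56.4% to 60.6% in KO2 replicate 1. So did those of *Mta1*, at 13.6% to 19.0% in WT replicate 1 and 14.1% to 17.4% in KO2 replicate 2. Per kb of exons the shares of *Mta1* and *Mta2* overlapped between the groups, while *Mta3* still stood apart, at 12.3% and 10.9% in WT and 17.1% and 18.8% in KO2. The exact two-sided permutation p of the *Mta3* share was 0.333 on both scales. Per kb, *Mta2* exceeded *Mta3* 5.35 and 5.62 times in WT and 3.64 and 3.14 times in KO2. Over the whole group the summed level was nearly the same, at 276, 263, 269 and 261 CPM, with a log2 fold change of -0.02 (95% interval -0.25 to 0.21, edgeR quasi-likelihood test with Benjamini-Hochberg adjustment, adjusted p = 0.942).

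Neither MBD gene was called, and their shares overlapped between the groups. *Mbd3* (ENSMUSG00000035478, chr10:79855284-79862295, minus strand) had 122, 216, 419 and 365 counts, or 45.5 and 51.0 CPM in WT and 53.1 and 48.8 CPM in KO2, with a log2 fold change of 0.07 (adjusted p = 0.874, edgeR). *Mbd2* (ENSMUSG00000024513, chr18:70727843-70785785, plus strand) had 65, 91, 184 and 201 counts, or 24.2, 21.5, 23.3 and 26.9 CPM, with a log2 fold change of 0.14 (adjusted p = 0.810, edgeR). Both genes overlapped between the groups. *Mbd3* held 65.2% and 70.4% of the MBD CPM in WT and 69.5% and 64.5% in KO2, a difference of -0.81 percentage points that was smaller than the spread within either group (exact two-sided permutation test, p = 0.667). The sum of the 2 genes had a log2 fold change of 0.10 with a 95% interval from -0.21 to 0.40 (edgeR quasi-likelihood test with Benjamini-Hochberg adjustment, adjusted p = 0.790).

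The other NuRD subunits were measured beside the paralogues. Of 5 such genes 4 were tested, and 0 were called in edgeR or DESeq2 and 0 had an unadjusted p under 0.05, with a median log2 fold change of 0.10. *Gatad2a* and *Gatad2b*, which encode the p66 proteins that connect the remodeller to the rest of the complex, had log2 fold changes of 0.12 and 0.00 (adjusted p = 0.665 and 0.994, edgeR). The histone chaperone genes *Rbbp4* and *Rbbp7* had log2 fold changes of 0.17 and 0.08 (adjusted p = 0.435 and 0.731, edgeR), and exons of both overlap genes on the opposite strand. *Cdk2ap1*, which encodes a small subunit, had only 4, 6, 10 and 14 counts and was not tested. As for *Hdac1*, most of its windows cannot give unique reads, so its low count is not a measure of its level.

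HDAC1 and HDAC2 are also found in other complexes, whose genes were counted in the same test. Of all tested genes 5.64% were called, with 3.04% of all tested genes lower and 2.6% higher, and the median log2 fold change was 0.01. Of 13 genes of the SIN3 complex, 2 fell and none rose in edgeR, with a median log2 fold change of -0.20, and DESeq2 called 1. An unadjusted p under 0.05 in edgeR, in either direction, was found for 4 of the 13. The share of all tested genes under this unadjusted cutoff was not counted, so this number has no baseline. The 2 called genes were *Fam60a*, with 363 and 342 CPM in WT and 209 and 207 CPM in KO2 (log2 fold change -0.76, adjusted p = 0.00027, edgeR), and *Sap30*, with 123 and 113 CPM against 84.8 and 84.1 CPM (log2 fold change -0.48, adjusted p = 0.0440, edgeR). Both encode subunits of the SIN3 deacetylase complex. Of 9 genes of the CoREST complex, 1 fell and none rose in edgeR, with a median of -0.31, and DESeq2 called 1. An unadjusted p under 0.05, in either direction, was found for 4 of the 9, again without a baseline. *Rcor2*, a CoREST scaffold gene expressed in ESCs, had 121 and 108 CPM in WT and 59.1 and 51.6 CPM in KO2 (log2 fold change -1.05, adjusted p = 0.00019, edgeR). In each of these 3 genes both KO2 libraries lay below both WT libraries. The 3 were named because they were called, and the groups did not overlap in 48.8% of all tested genes.

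Of the 3 MiDAC genes 0 were called in edgeR or DESeq2 and 0 had an unadjusted p under 0.05. Their median log2 fold change was 0.24, and the smallest adjusted p was that of *Elmsan1* at 0.279. Among relatives of the paralogues that are not NuRD subunits, 0 of 7 other CHD genes, 0 of the 7 tested of 9 other HDAC genes and 0 of 5 other MBD genes were called in edgeR or DESeq2, and 0 had an unadjusted p under 0.05. Their median log2 fold changes were -0.04, -0.14 and -0.18. The smallest adjusted p in these lists belonged to *Chd2* (log2 fold change -0.22, adjusted p = 0.305, edgeR), *Hdac3* (-0.22, adjusted p = 0.556) and *Mbd1* (-0.31, adjusted p = 0.599).

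The calls on the paralogues differed in how they held under other settings. *Chd3* and *Hdac2* were called in 8 of 11 alternatives each, *Chd5* in 4 of the 10 that could test it and *Mta3* in 2 of 11, and the sign of the log2 fold change of these 4 genes stayed the same in all of them.

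**Figure D5:**
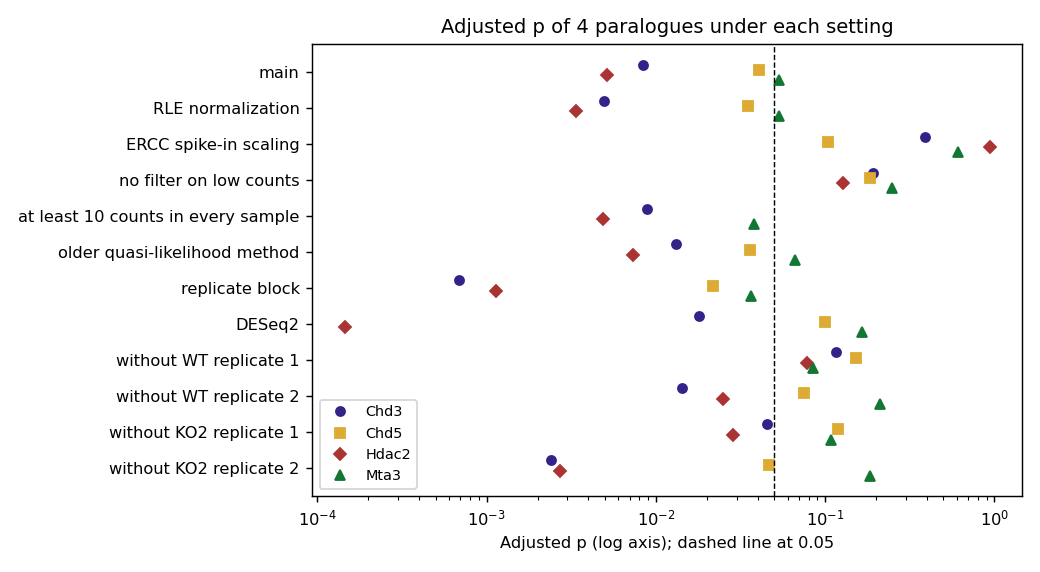
Points give the adjusted p (horizontal axis, log scale) of Chd3, Chd5, Hdac2 and Mta3 under the setting reported and each alternative, with a dashed line at 0.05. All 4 genes lie to the right of the line with ERCC spike-in scaling, without a filter on low counts and without WT replicate 1.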

How the data were processed

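RNA-seq was analysed for 2 WT and 2 KO2 libraries. Per the study's methods, strand-specific libraries were made from RNA depleted of ribosomal RNA, and the authors mapped reads to mm9 with hisat2 and counted them with HTSeq. The deposited values are raw counts per gene, without normalization or pooling. Tool versions, the read length of these RNA libraries, annotation and counting options are not given in the sources used here. HTSeq's summary rows (52.9% to 58.8% of all entries) and 92 rows for ERCC spike-ins were left out of library sizes. Symbols and coordinates came from the GENCODE M1 annotation of NCBIM37, and symbols missing there came from a second list of gene names. Together these gave a symbol to 32782 of the 48526 identifiers. The symbol *Elmsan1* was matched through RefSeq synonyms.

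Counts were scaled with TMM factors of 0.952 and 0.980 in WT and 1.06 and 1.01 in KO2, filtered with filterByExpr (minimum count 10, minimum total 15) and tested with glmQLFit and glmQLFTest in edgeR 4.0.16 (R 4.3.3), with condition as the only term. P-values were adjusted by the Benjamini-Hochberg method over all tested genes, with a threshold of 0.05. Group sums were tested in the same way, with the 10 rows replaced by 4 sums. Shares were compared with an exact two-sided permutation test in scipy 1.17.1. Windows of 43 bases were taken from the annotated protein-coding transcripts and matched to both strands of the genome. This is the shorter read length in the study's sequencing methods, which do not say which length these RNA libraries had. Longer windows were not checked, and smaller shares of them could occur elsewhere. Replicates were compared by a chi-square test, whose statistic per gene was 5.92 in WT and 21.3 in KO2, above sampling noise, so they were kept as separate samples. The fits were tested on simulated counts.

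The members and lists were chosen with earlier results of these data known. Named genes were all 10 members, *Zfp296*, the other NuRD subunits and, of every other list of complex subunits or relatives, up to 4 called genes with the smallest adjusted p or, with none called, the gene with the smallest. *Gm10093*, *Gm12184*, *Gm17305*, *Gm13645*, *Ddx3y* and the markers were named after their values were seen. Alternatives were RLE normalization, ERCC scaling, no filter, at least 10 counts in every library, the older quasi-likelihood method, DESeq2 1.42.0, a replicate block, leaving out each replicate, and other scales of the shares.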

Additional observations from a re-analysis of the deposited data

How the results depend on the processing

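RLE normalization and the older quasi-likelihood method changed no call or sign among the 10 genes and 4 sums. ERCC spike-in scaling, from 2515 to 7024 spike-in counts per library, moved the median of all genes to 0.09 and called 163 genes in place of 726 and 0 of the 10 paralogues. The log2 fold changes (adjusted p) were then -0.79 (0.387) for *Chd3*, 1.61 (0.104) for *Chd5*, -0.43 (0.943) for *Hdac2* and -0.39 (0.967) for the HDAC sum, and turned to 0.064 for *Chd4*, 0.038 for the CHD sum and 0.072 for the MTA sum. Without a filter, with 25397 genes tested and 61 called, 0 paralogues were called, at -0.86 (0.193), 1.58 (0.185), -0.50 (0.128) and -0.46 (0.134) for the same genes and sum, and the MTA sum was at 0.0086. Of the 3 called genes of other complexes and relatives, 0 and 1 were called in these settings. At least 10 counts in every library brought *Mta3* past the threshold (0.56, 0.0381), put the MTA sum at 0.0012 and left *Chd5* untested. DESeq2 called 454 of 11334 genes and gave *Chd5* 1.59 (0.100).

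The same replicate numbers stand in both groups, but nothing says what they share, and the deviations of same-numbered libraries correlated at -0.0166 across genes. With a replicate block 946 genes were called, *Mta3* among them (0.54, 0.0362), and no other call on a paralogue changed. Leaving out each replicate gave 270 to 691 called genes, 0 to 3 of the paralogues called, and log2 fold changes from -1.07 to -0.71 for *Chd3*, 1.36 to 1.92 for *Chd5*, -0.59 to -0.48 for *Hdac2* and -0.54 to -0.45 for the HDAC sum. The 0 came without WT replicate 1, the shallowest library. Uncalled values changed sign without WT replicate 1 for *Hdac1*, *Mbd3* and the MTA sum and without KO2 replicate 1 for *Hdac1*, with ranges of -0.12 to 0.27, -0.0021 to 0.16 and -0.058 to 0.013. Differences in share, in percentage points, moved to 2.70 for *Chd4* against *Chd3* alone and, per kb of exons, longest transcript or unique windows, to 0.843, 0.713 and 0.777 for *Chd5*, -2.88, -3.15 and -2.43 for *Mta2* and 6.34, 6.26 and 5.31 for *Mta3*. The *Mta2* share against *Mta1* alone moved to 1.76, and that of *Hdac2* to -10.5 per kb of unique windows and -5.28 with the copy of *Hdac1* added. Leaving out each replicate gave differences in share from -3.37 to 1.75 for *Mbd3* (-0.81 with all libraries), which turned in sign without replicate 2 of either group, -5.79 (without WT replicate 1) to -0.94 (without WT replicate 2) for *Mta1* (-3.37) and -3.66 to -1.36 (without KO2 replicate 1) for *Hdac2* (-2.51). The causes were not tested.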
